A study of Mus musculus with 38 samples.

Results

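The genes Il4, Il5, Il13 and Il9 encode the 4 classical type 2 cytokines. They were followed across 5 mouse CD8 T cell clones, each measured in an activated and in a dormant state. Members were all probe sets that the platform annotation assigns to these 4 gene symbols. Each gene had exactly 1, so 4 of the 23410 named probe sets on the array were described: 10385837 for Il13, 10376054 for Il5, 10385832 for Il4 and 10409586 for Il9.

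Type 2 cytokines are best known from CD4 helper T cells, innate lymphoid cells and mast cells, where they direct responses to parasites and allergens. IL-4 drives B cell class switching and further type 2 differentiation, IL-5 supports eosinophils, IL-13 acts on epithelium, mucus and fibrosis, and IL-9 on mast cells and epithelium. In mouse and human, Il4, Il13 and Il5 lie in 1 gene cluster together with Rad50, whose 3' part holds a locus control region known to govern the cytokine genes in helper T cells, while Il9 is on another chromosome. Conventional cytotoxic CD8 T cells are known for interferon gamma rather than for these genes.

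Activated arrays came from clones kept for 14 h on plates coated with an anti-CD3 antibody (0.5 ug/ml), which triggers the T cell receptor complex, and dormant arrays from the same clones at rest. The labels give sAg1 and sAg3 the phenotype CD8IL13+, 8uvmo-2 and 8uvmo-3 the phenotype CD8IL13-, and name CD8bm1 as alloreactive. The series design calls the first type CD8γ13 and the second Tc1, and its title places the work in Chlamydia muridarum infection of the genital tract. The 20 activated arrays were 4 per clone, and the 18 dormant ones 4 per clone but only 3 for sAg1 and for sAg3. Each phenotype rests on 2 clones, or on 1 for the alloreactive type, so a phenotype cannot be told apart from the particular clones that stand for it. Because the clones are named for IL13, the Il13 comparison by phenotype lies close to the label and is not independent of it. All values are deposited log2 levels unless a difference is named. Nothing in the labels says whether replicate arrays stem from separate cultures. The p-values therefore reflect only how far these arrays scatter, and that scatter may be technical.

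Cd3e (12.49 to 13.44 over the 10 group means) and Cd8a (11.22 to 12.82), which mark T cells and their CD8 class, were high in every clone and state. Of 5 measured T cell markers, all 5 reached 7 on every array of sAg1, 8uvmo-2 and 8uvmo-3. In CD8bm1 and dormant sAg3 only 4 of the 5 did on each array, and in activated sAg3 4 or 5. Cd4 was also above 7 in sAg3 (10.59 activated and 10.45 dormant), sAg1 (8.00 and 7.85) and 8uvmo-2 (8.09 and 7.07). A level of 7 served as a guide for near background because it is close to the median of all named values (6.91), but no background was measured. Array medians lay at 7.01 to 7.09 in activated clones and at 6.58 to 6.70 in dormant clones, so activation is also given after each array was centred on its median. The RNA is from bulk cultures, in which fewer expressing cells and less RNA per cell cannot be told apart.

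The start regions of the 4 genes are shown because Il13 and Il5 differed widely between these clones while Il4 and Il9 did not. The sequences are the 250 bases upstream of each gene's start, from RefSeq on build GRCm38.p6, written 5′ to 3′ along the gene's own strand. All 4 genes were matched by symbol, and for Il4, which has 2 listed windows, the one at the gene's outer start was taken. Capitals mark matches on either strand to a GATA motif (spelled AGATAA or with a final G, or either with T as the first letter), to GGAAA, the core bound by NFAT factors, and to TGACTCA, the AP-1 motif.

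Il13, chr11:53634703-53634952, minus strand: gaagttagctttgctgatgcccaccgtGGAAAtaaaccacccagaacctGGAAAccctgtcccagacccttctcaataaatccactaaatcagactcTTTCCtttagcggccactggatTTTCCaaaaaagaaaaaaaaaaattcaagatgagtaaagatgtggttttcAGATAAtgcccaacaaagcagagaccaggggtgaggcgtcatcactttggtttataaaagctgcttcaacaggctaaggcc
Il5, chr11:53720544-53720793, plus strand: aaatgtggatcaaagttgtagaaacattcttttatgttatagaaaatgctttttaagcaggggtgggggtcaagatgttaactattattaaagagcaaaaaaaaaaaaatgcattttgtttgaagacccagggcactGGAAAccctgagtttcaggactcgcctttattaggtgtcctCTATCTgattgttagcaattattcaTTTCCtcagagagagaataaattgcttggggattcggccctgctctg
Il4, chr11:53618666-53618915, minus strand: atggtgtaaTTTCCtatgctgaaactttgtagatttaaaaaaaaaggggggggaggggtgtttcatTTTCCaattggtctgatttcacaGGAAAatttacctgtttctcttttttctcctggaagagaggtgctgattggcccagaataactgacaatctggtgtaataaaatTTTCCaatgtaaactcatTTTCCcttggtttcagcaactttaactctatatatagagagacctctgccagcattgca
Il9, chr13:56482258-56482507, minus strand: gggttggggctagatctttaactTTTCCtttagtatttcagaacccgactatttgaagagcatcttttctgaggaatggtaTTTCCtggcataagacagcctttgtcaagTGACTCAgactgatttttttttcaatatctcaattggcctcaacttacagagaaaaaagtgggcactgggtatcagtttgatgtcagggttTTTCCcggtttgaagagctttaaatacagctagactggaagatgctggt

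The Il13 window held 1 GATA match, 81 to 76 bases before the start, and the Il5 window held 1, 72 to 67 bases before it. The Il4 and Il9 windows held no GATA match in these letters. Of all 32851 windows of the same length in the table, 26.5% held a GATA match. Matches to GGAAA numbered 4 in Il13, 2 in Il5, 5 in Il4 and 3 in Il9, and 55.6% of all windows held at least 1. A TGACTCA match was present in Il9 alone among the 4, 140 to 134 bases before the start, against 4.46% of all windows. No match overlapped another. These matches describe the letters of the windows only.

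Il13 was highest in sAg3 in both states, and activated sAg1 came next among the activated clones. Its level was 10.32, 10.08, 9.12 and 8.52 on the 4 activated sAg1 arrays, against 6.46, 6.20 and 6.06 on the dormant ones. In sAg3 it was 12.72, 12.87, 12.72 and 12.79 when activated, against 10.28, 10.34 and 10.25 when dormant. Dormant sAg3 thus lay level with the highest activated sAg1 array, and in both clones the states did not overlap. In 8uvmo-2, a clone labelled CD8IL13-, Il13 reached 7.92, 7.82, 7.88 and 7.62 when activated, against 6.09, 6.16, 6.26 and 6.35 when dormant, again without overlap. In 8uvmo-3 the values were 6.68, 6.44, 6.46 and 6.51 in the activated state, against 6.05, 5.88, 6.06 and 6.19 in the dormant state. CD8bm1 had 6.87, 6.37, 6.63 and 6.51 when activated, against 6.09, 6.36, 6.23 and 6.09 when dormant. Both of these clones stayed below 7 on every array.

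Among the dormant clones, Il5 lay above 7 in sAg3 only. Activated sAg3 arrays gave 13.05, 13.18, 13.32 and 13.21, against 10.85, 10.77 and 11.03 in dormant sAg3. Activated sAg1 gave 8.16, 8.32, 6.93 and 6.70, against 4.44, 4.65 and 4.59 in dormant sAg1. Every activated array of both clones lay above every dormant array of the same clone. In 8uvmo-2, 8uvmo-3 and CD8bm1 the gene lay between 5.07 and 5.73 when activated and between 4.07 and 4.85 when dormant, far below 7 throughout.

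Il4 and Il9 were low everywhere. On the 20 activated arrays Il4 ran from 6.32 to 6.64, against 5.29 to 5.89 on the 18 dormant arrays. Il9 ran from 6.45 to 6.80 on activated arrays, against 5.52 to 5.88 on dormant arrays. Neither gene passed 7 on any array, and the group means of all clones lay within 0.2 of each other in each state.

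**Figure D1:**
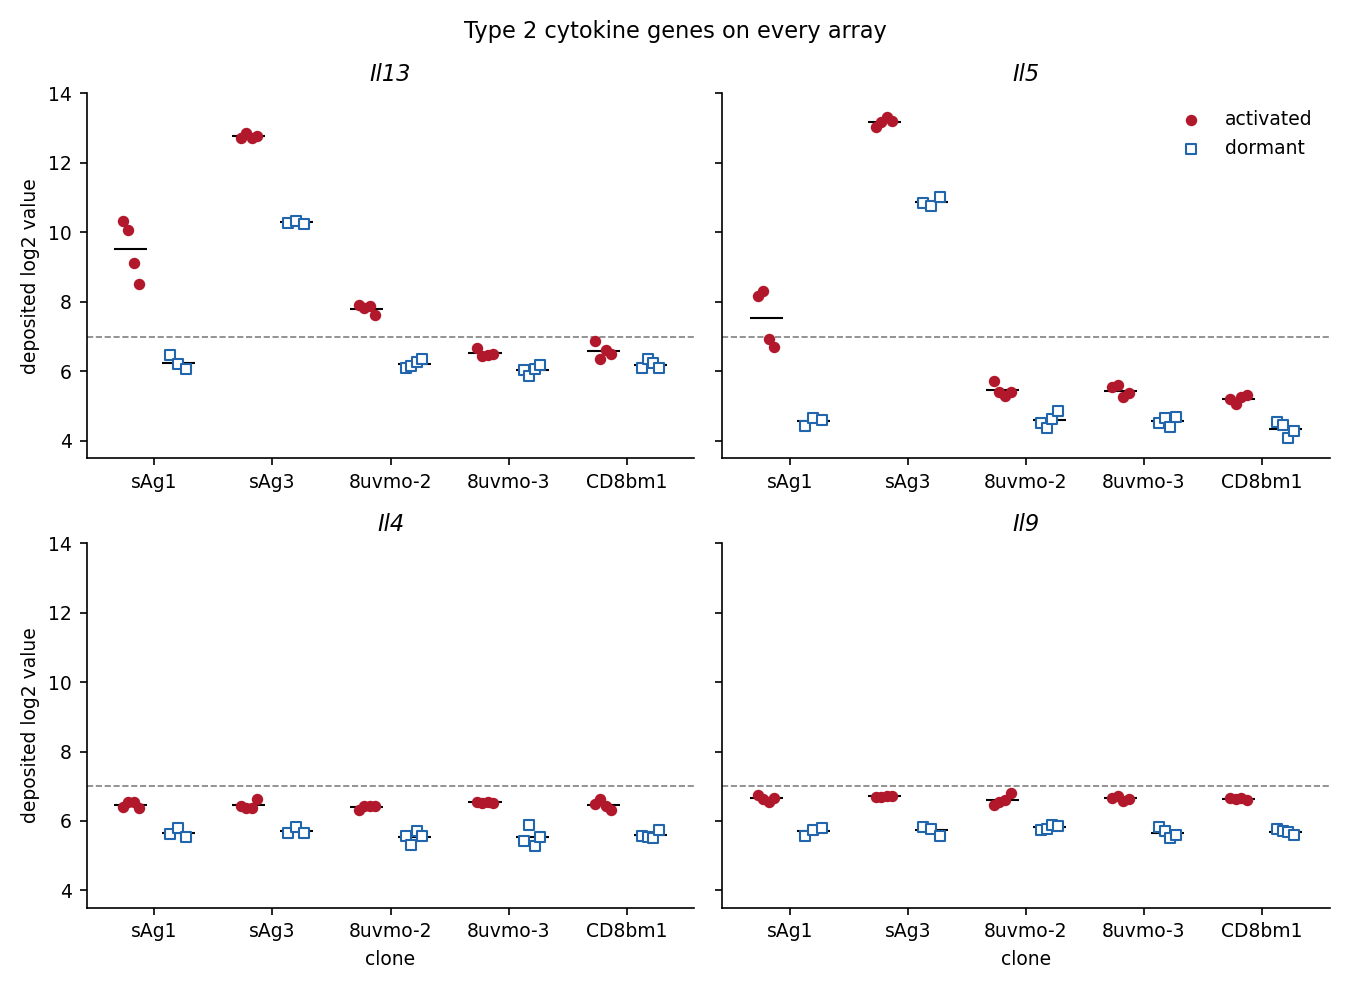
Deposited log2 level of the 4 genes on each of the 38 arrays, by clone, with activated arrays as filled circles to the left of dormant arrays as open squares. Short lines are group means and the dashed line marks 7; Il13 and Il5 are highest in sAg3 in both states, and Il4 and Il9 stay below the dashed line in every clone.

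Activation was tested within each clone with limma. Calls needed a log2 difference of at least 1 and a p below 0.05 after Benjamini-Hochberg adjustment over all named probe sets. In sAg1, 2 of the 4 cytokine genes met this, against 10.8% of all probe sets (7.22% called higher). Il13 averaged 9.51 ± 0.84 in activated sAg1 and 6.24 ± 0.20 in dormant sAg1 (SD, n = 4 and 3), a rise of 3.27 ± 0.22 (SE, limma adjusted p = 9.12e-15). Il5 rose by 2.97 ± 0.22 (limma adjusted p = 1.56e-13), with means of 7.53 in activated and 4.56 in dormant sAg1. Where one side lies below 7, as here, a log2 difference may understate the change.

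In sAg3, Il13 and Il5 were again the called members, against 5.04% of all probe sets (4.10% called higher). Il13 rose by 2.49 ± 0.22 (SE, limma adjusted p = 1.26e-11), with means of 12.78 in activated and 10.29 in dormant arrays. Il5 rose by 2.31 ± 0.22 (limma adjusted p = 9.2e-11), with means of 13.19 and 10.88. Both genes started from a high level in dormant sAg3 and still rose. A rise of that size was rare among bright probe sets: among those with the same mean level in sAg3, the median difference was -0.183 for the level of Il5 and -0.034 for that of Il13, and at most 0.404% moved up by as much.

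In 8uvmo-2, Il13 alone was called among the 4, against 11.9% of all probe sets (7.01% called higher). It rose by 1.59 ± 0.20 (SE, limma adjusted p = 1.15e-08), and by 1.20 after centring, where it was still called, against 11.7% of all probe sets. Among probe sets of the same mean level 2.97% rose by at least as much. Against a required difference of 1, limma's treat test gave an adjusted p of 0.0533. Il5 differed by 0.86 in this clone, within the shift of dim probe sets described below. Activated 8uvmo-2 exceeded activated 8uvmo-3 in Il13 by 1.29 (limma adjusted p = 3.61e-06, against 26.1% of all probe sets under the threshold) and activated CD8bm1 by 1.22 (adjusted p = 7.25e-06), while in Il5 it differed from 8uvmo-3 by 0.005 (95% interval -0.41 to 0.42).

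In 8uvmo-3, 1 of the 4 genes was called, against 10.1% of all probe sets (6.22% called higher), and this was Il4 with a difference of 1.00 ± 0.09, exactly at the minimum. That call was lost after centring (0.61) and without activated 8uvmo-3 replicate 1 (0.99) or 3 (1.00) or dormant 8uvmo-3 replicate 1 (0.96) or 3 (0.92). In CD8bm1 no member was called, against 7.27% of all probe sets (4.59% called higher), although Il4, Il5 and Il9 had adjusted p-values under the threshold. Il13 differed by 0.48 ± 0.20 in 8uvmo-3 (limma adjusted p = 0.029) and by 0.40 ± 0.20 in CD8bm1 (adjusted p = 0.0653), and after centring by 0.09 and -0.01.

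The Il4 and Il9 differences were of nearly one size in all clones. For Il4 they lay between 0.74, in sAg3, and 1.00, and for Il9 between 0.78, in 8uvmo-2, and 0.98. All 10 had adjusted p-values under the threshold, but so did many probe sets in the upward direction: 62.0% for sAg1, 59.0% for sAg3, 63.2% for 8uvmo-2, 62.2% for 8uvmo-3 and 61.4% for the alloreactive clone. Il9 passed the minimum of 1 when single arrays were left out, without dormant sAg3 replicate 1 (1.04) or 2 (1.01) and, in 8uvmo-3, without dormant replicate 1 (1.03) or 2 (1.00) or activated replicate 3 (1.01). Probe sets of the same level shifted up by medians of 0.506 to 0.592, and 5.24% to 19.7% of them moved by at least as much as Il4 or Il9. After centring on array medians the differences were 0.33 to 0.61 for Il4 and 0.38 to 0.60 for Il9. The Il5 differences in 8uvmo-2, 8uvmo-3 and CD8bm1 were of the same kind (0.86, 0.88 and 0.88), as 14.0% to 15.9% of equally dim probe sets moved by as much.

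**Figure D2:**
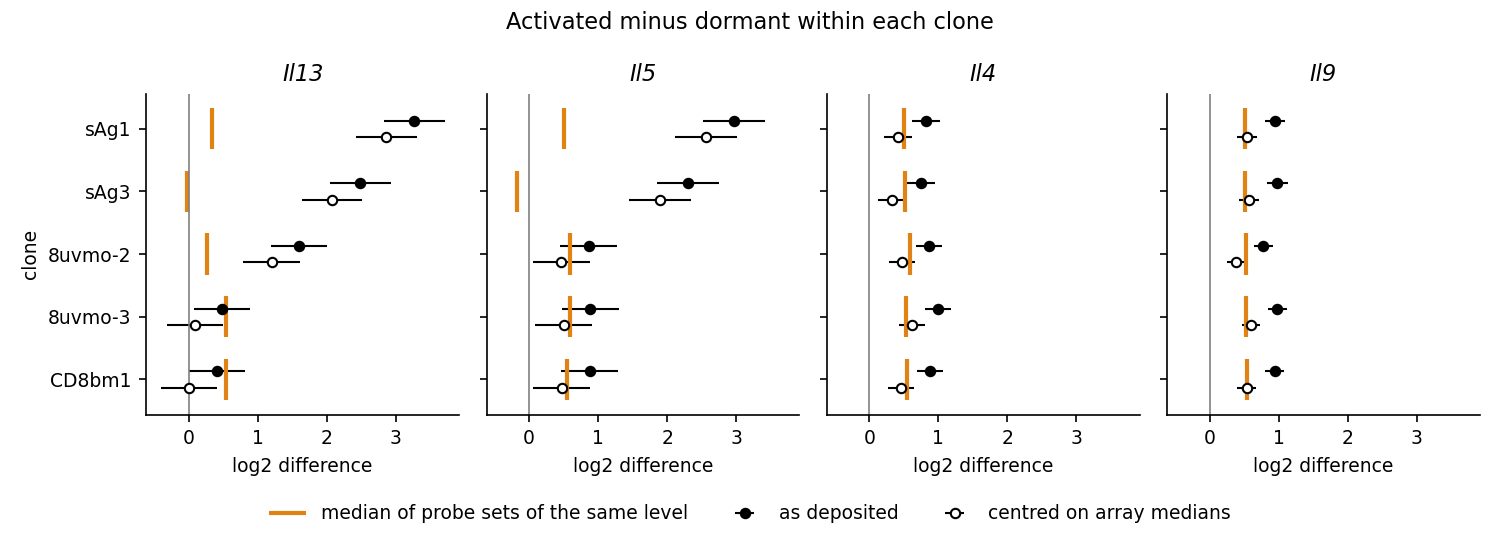
Log2 difference, activated minus dormant, of each gene in each clone, as deposited (filled) and after centring on array medians (open), with 95% confidence intervals. Orange ticks give the median difference of probe sets of the same mean level; Il13 stands apart from its tick in sAg1, sAg3 and 8uvmo-2, Il5 in sAg1 and sAg3, and the deposited Il4 and Il9 values lie above theirs by less than Il13 and Il5 do in sAg1 and sAg3. The ticks refer to the deposited scale.

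Set by phenotype in the activated state, 2 of the 4 genes were higher in CD8IL13+ than in CD8IL13- clones and none was lower, against 1.75% of all probe sets called (0.666% higher). A call here also required the clone means of both sides to lie apart. Il5 was higher by 4.91 ± 0.14 (SE, limma adjusted p = 1.55e-24), with clone means of 7.53 and 13.19 against 5.46 and 5.45. Il13 was higher by 3.98 ± 0.14 (adjusted p = 3.46e-22), with means of 9.51 and 12.78 against 7.81 and 6.52. Il4 differed by -0.01 (95% interval -0.14 to 0.13) and Il9 by 0.06 (-0.04 to 0.15), so a difference of 0.2 or more in either gene lies outside the interval. With the clones, 2 against 2, as the unit of replication, neither gene passed (limma adjusted p = 1 for both), and 2 probe sets in all were called.

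Against activated CD8bm1, Il5 was higher in the CD8IL13+ clones by 5.14 ± 0.18 and Il13 by 4.55 ± 0.17 (limma adjusted p = 1.09e-22 and 2.06e-21), again 2 of 4 members, against 3.67% of all probe sets called (2.02% higher). Both lost the call with clones as replicates (adjusted p = 1 and 0.891).

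In the dormant state the phenotype difference rested on sAg3. Il13 was higher in CD8IL13+ clones by 2.13 ± 0.15 (limma adjusted p = 6.51e-14), and it was the only member called, against 3.35% of all probe sets (1.02% higher). The means were 6.24 in sAg1 and 10.29 in sAg3, against 6.22 in 8uvmo-2 and 6.05 in 8uvmo-3, so the condition that clone means lie apart was met by 0.025. That call was lost without dormant sAg1 replicate 1 (2.08), without dormant 8uvmo-2 replicate 1 (2.11) and without dormant 8uvmo-2 replicates 1 and 3 (2.12), arrays that stood apart from replicates 2 and 4 of their group. It was also lost with the replicate number as a block (2.09) and with clones as replicates (adjusted p = 0.881). Il5 was higher by 3.14 ± 0.16 (adjusted p = 3e-18) but was not called, since dormant sAg1 (4.56) lay level with 8uvmo-2 (4.59) and 8uvmo-3 (4.57). Without dormant sAg1 replicate 1 it was called (3.17).

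Against dormant CD8bm1, Il5 was higher in the CD8IL13+ clones by 3.38 ± 0.19 and Il13 by 2.07 ± 0.18 (limma adjusted p = 4.75e-17 and 1.05e-11), 2 of 4 members, against 7.26% of all probe sets called (3.14% higher). The sAg1 mean exceeded that of CD8bm1 by 0.22 ± 0.22 in Il5 and by 0.05 ± 0.22 in Il13, neither beyond the spread (adjusted p = 0.475 and 0.894). The Il13 call was lost without dormant sAg1 replicate 1 (2.02), with array weights (2.02) and with clones as replicates (adjusted p = 0.839), as was that of Il5 with clones as replicates (adjusted p = 0.836).

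The 2 CD8IL13+ clones were far from equal. Activated sAg1 lay below activated sAg3 by 5.66 ± 0.20 in Il5 and by 3.27 ± 0.20 in Il13 (SE, limma adjusted p = 3.43e-22 and 1.27e-15), which made 2 of 4 members lower in sAg1, against 5.04% of all probe sets called (2.43% lower). Dormant sAg1 lay below dormant sAg3 by 6.32 ± 0.24 in Il5 and by 4.05 ± 0.23 in Il13 (adjusted p = 1.15e-21 and 1.79e-16), again 2 of 4, against 7.55% of all probe sets called (3.80% lower). Il4 and Il9 differed between these clones by -0.06 to 0.03 in the activated and dormant states.

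The size of the response itself was then compared. The activation effect was larger in CD8IL13+ than in CD8IL13- clones by 1.76 ± 0.21 in Il5 (limma adjusted p = 7.42e-08) and by 1.84 ± 0.21 in Il13 (adjusted p = 2.22e-08). These were 2 of the 4 genes, against 1.95% of all probe sets called (1.39% higher). The test took arrays as replicates and was not run with clones as the unit of replication. For Il4 the difference between the effects was -0.15 (95% interval -0.35 to 0.04) and for Il9 it was 0.08 (-0.06 to 0.23). Between sAg1 and sAg3 the effects differed by 0.66 ± 0.31 in Il5 (adjusted p = 0.133) and by 0.78 ± 0.31 in Il13 (adjusted p = 0.0601), and no member was called, against 5.19% of all probe sets. The Il13 value depended on 1 array: without activated sAg1 replicate 4 it was 1.12 (adjusted p = 0.000348), and with array weights 1.00 (adjusted p = 0.00826).

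The order of the clones differed between the genes. Neighbours in an order were said to differ at an adjusted p under the threshold, with no minimum. Activated Il13 ran from sAg3 through sAg1 and 8uvmo-2 to CD8bm1 and 8uvmo-3, and each neighbouring pair differed except the last (difference 0.07, limma adjusted p = 0.845). Among all probe sets 35.4% differed between activated sAg1 and sAg3, 23.9% between sAg1 and 8uvmo-2 and 30.0% between 8uvmo-2 and CD8bm1. Activated Il5 ran from sAg3 through sAg1 to 8uvmo-2, 8uvmo-3 and CD8bm1, the last 3 not differing beyond their spread (adjusted p = 0.99 and 0.453 for the neighbours). In the dormant state sAg3 stood above all others in both genes and no further neighbours differed, where 34.9% of all probe sets differed between sAg1 and sAg3 and 35.7% between sAg3 and 8uvmo-2. For Il4 and Il9 no neighbours differed in either state, with adjusted p-values from 0.373 to 0.99 and overlapping ranges throughout.

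The 4 activated sAg1 arrays split in the same way for Il5 and Il13, with replicates 1 and 2 above replicates 3 and 4 by more than 1 log2 unit in Il5. Other genes, chosen after their values were seen, showed both patterns. Il24, an IL-10 family cytokine gene, was split likewise (10.26 and 10.34 against 8.78 and 8.46), as was Il10 (11.23 and 11.67 against 10.65 and 10.29). Csf2, the gene of the growth factor GM-CSF, was not split in this way (11.70, 11.76, 11.55 and 11.91), nor was Gata3 (9.53, 9.73, 9.75 and 9.75). These 4 arrays correlated at 0.9956 to 0.9981 over all probe sets.

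Over the 10 group means, Il5 and Il13 correlated at r = 0.973, and Il4 and Il9 at 0.987, while the other pairs lay between 0.309 and 0.411. These are descriptions over means that share arrays and the general activation shift. Most like Il5 were Plcb1 (r = 0.978), a phospholipase C gene, Arhgef10l (0.974), Il13 (0.973), Plce1 (0.969), another phospholipase C gene, and Mest (0.968), an imprinted gene, out of 2066 candidate probe sets. Likeness to Il13 was greatest for Il5 (0.973), Klk1b9 (0.967), a kallikrein gene, Plcb1 (0.935), Epdr1 (0.928) and Pam (0.927), which encodes an enzyme that amidates peptides. Mest was at 12.62 in activated and 11.64 in dormant sAg3 but between 4.85 and 5.78 in every other group, activated sAg1 included (5.65). Plcb1, Arhgef10l, Plce1 and Pam were likewise high in sAg3 only, with 6.04, 6.88, 5.63 and 6.03 in activated sAg1, against 5.84 to 6.01, 6.86 to 6.94, 5.50 to 5.77 and 5.96 to 6.30 in activated 8uvmo-2, 8uvmo-3 and CD8bm1. Epdr1, by contrast, was at 8.25 in activated sAg1, against 6.44 to 6.62 in the activated CD8IL13- clones and CD8bm1. Il4 and Il9 spanned too little for such a search.

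**Figure D3:**
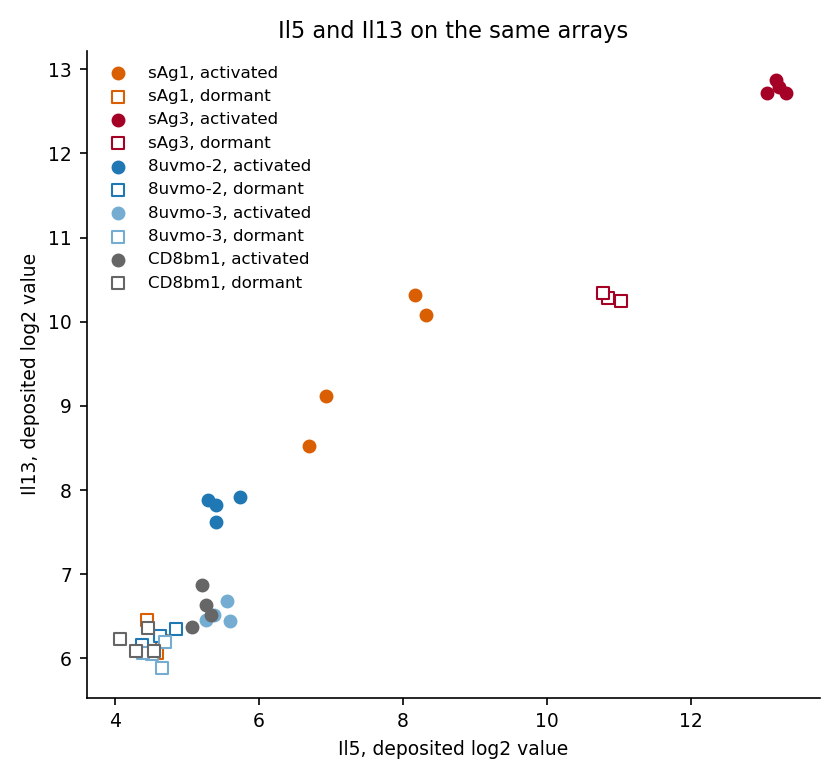
Il13 against Il5 on each of the 38 arrays (deposited log2 levels, clone by colour, activated filled and dormant open). Activated sAg1 lies between the low arrays and activated sAg3 along both axes, and activated 8uvmo-2 lies above activated 8uvmo-3 and CD8bm1 along the Il13 axis.

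The genes next to the cytokines on chromosome 11 were then read in their order along the chromosome, in which Kif3a, Il4, Il13, Rad50, Il5 and Irf1 follow each other. Of 19 measured neighbours other than the members, 1 was called higher in activated CD8IL13+ than CD8IL13- clones and none lower, against 0.666% of all probe sets called higher, with a median difference of 0.070 against 0.018 over all probe sets. The gene called was Kif3a, which encodes a kinesin motor subunit and lies next to Il4. Its level was 6.87 to 7.20 in activated sAg1 and 9.01, 8.91, 8.99 and 8.97 in activated sAg3, against 5.38 to 5.72 in activated 8uvmo-2 and 5.65 to 5.81 in activated 8uvmo-3. The difference was 2.38 ± 0.053 (SE, limma adjusted p = 5.4e-28). In the dormant state Kif3a was again the only 1 of 19 neighbours called, against 1.02% of all probe sets called higher, with 7.03 in sAg1 and 9.61 in sAg3 against 5.00 in 8uvmo-2 and 5.34 in 8uvmo-3, a difference of 3.14 ± 0.057 (adjusted p = 1.31e-30). In the alloreactive clone CD8bm1, Kif3a was at 7.15 to 7.41 when activated and 7.53 to 7.66 when dormant, so its dormant arrays lay above those of sAg1 and its activated ones overlapped them. With clones as replicates neither Kif3a difference passed (adjusted p = 1 and 0.881).

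Kif3a differed by 0.01 ± 0.081 between activated and dormant sAg1 (limma adjusted p = 0.906), and in sAg3 it was lower when activated (8.97) than when dormant (9.61). It shared the order of Il13 and Il5 within the phenotype, with sAg1 below sAg3 by 1.93 ± 0.075 when activated and by 2.58 ± 0.087 when dormant (limma adjusted p = 2.88e-21 and 4.99e-23). Il4, which lies between Kif3a and Il13, showed no such pattern. Rad50, which encodes a DNA repair protein and lies between Il13 and Il5, had activated means of 10.15 in sAg1 and 10.55 in sAg3, against 9.28 in 8uvmo-2 and 9.68 in 8uvmo-3. That difference of 0.87 ± 0.070 had an adjusted p of 1.67e-12 but did not reach the minimum of 1.

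Farther along the same chromosome, Il3 and Csf2, which encode myeloid growth factors, ran against Il5 and Il13 between the CD8IL13+ clones. Activated Il3 was 12.03, 11.65, 11.78 and 11.46 in sAg1, against 8.06, 7.99, 7.67 and 7.64 in sAg3, a difference of 3.89 ± 0.18 (SE, limma adjusted p = 6.68e-19). Activated Csf2 averaged 11.73 in sAg1 and 7.67 in sAg3, a difference of 4.07 ± 0.27 (adjusted p = 1.68e-14). Activated 8uvmo-2 was high in both (11.62 in Il3 and 11.44 in Csf2), while its Il5 lay below 7. Of the 19 neighbours, 2 were called higher in activated sAg1 than in activated sAg3 (against 2.61% of all probe sets) and 1 lower (against 2.43%). These 3 are Il3, Csf2 and Kif3a. On chromosome 13, none of the 9 neighbours of Il9 was called in activated or dormant CD8IL13+ against CD8IL13- clones. Over all probe sets the called share was 1.75% in activated and 3.35% in dormant clones.

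**Figure D4:**
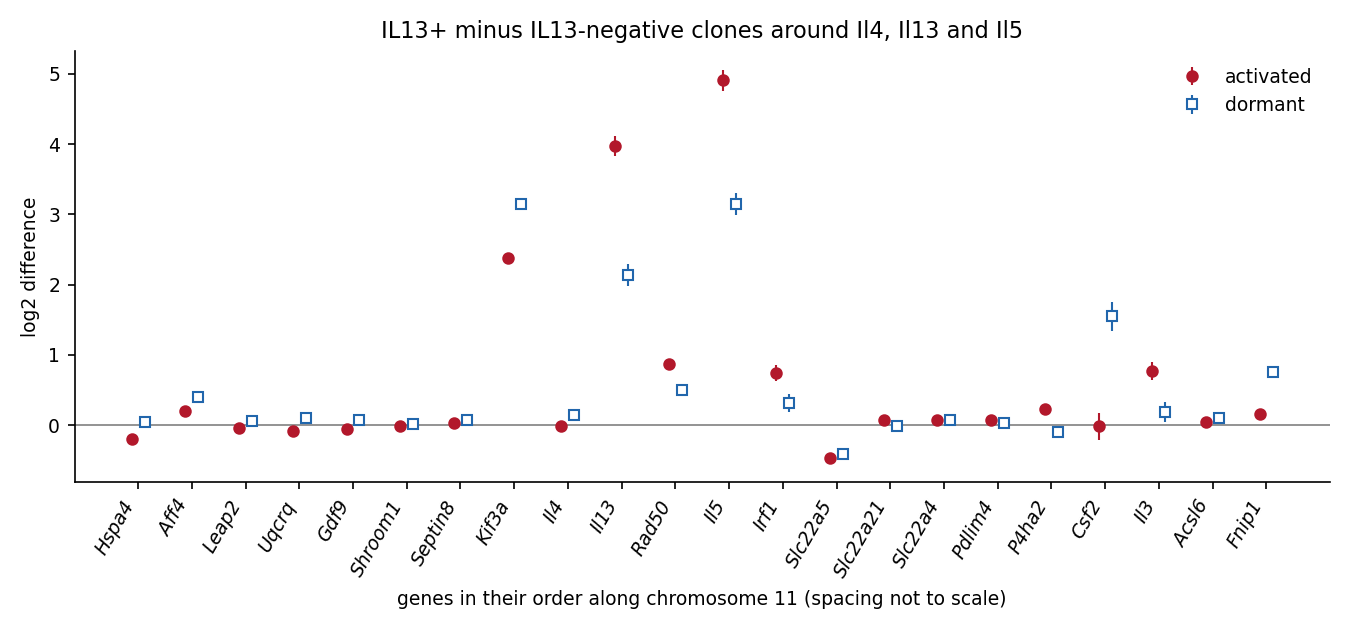
Log2 difference between CD8IL13+ and CD8IL13- clones for the genes around Il4, Il13 and Il5, in gene order along chromosome 11 with spacing not to scale, for activated (filled, left) and dormant (open, right) clones. Bars are standard errors; Kif3a, Il13 and Il5 stand out in both states, with Il4 and most neighbours near 0.

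Of the receptor chains for these cytokines, 7 of 8 were measured and none was called by phenotype in either state. Over all probe sets the called share was 1.75% in activated and 3.35% in dormant clones. The median difference of the chains was 0.135 in activated clones, against 0.018 over all probe sets. Il4ra, the chain shared by the IL-4 and IL-13 receptors, was high everywhere (9.87 to 10.98 over the group means). Il13ra1, which completes the receptor for IL-13, lay below 7 in every group, as did Il13ra2, a decoy receptor, and Il5ra, the specific chain for IL-5. Il9r, the specific chain for IL-9, had group means of 6.17 to 6.98, and its highest array was at 7.13, in activated sAg3.

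Among 17 regulators of type 2 cytokine genes, 1 was called higher and 1 lower in activated CD8IL13+ than CD8IL13- clones, against 1.75% of all probe sets called, with a median difference of 0.066. Gata3, the master factor of type 2 differentiation, was higher by 1.10 ± 0.052 (SE, limma adjusted p = 1.31e-18), at 9.69 in sAg1 and 10.38 in sAg3 against 9.06 in 8uvmo-2 and 8.80 in 8uvmo-3. Nfatc1, a factor activated through the T cell receptor, was lower by 1.31 ± 0.080 (adjusted p = 1.37e-15). This rested mostly on sAg3 (7.67), with sAg1 at 9.13 against 9.89 in 8uvmo-2 and 9.53 in 8uvmo-3. Activated CD8bm1 (7.71) lay level with sAg3. In dormant clones Nfil3, a leucine zipper factor, was the 1 regulator called, against 3.35% of all probe sets. It was higher by 1.38 ± 0.16 (limma adjusted p = 3.98e-09), which rested on sAg3 (10.59). Dormant sAg1 (8.98 to 9.18) overlapped 8uvmo-2 (7.56 to 9.08), with means of 8.49 in 8uvmo-3 and 9.40 in CD8bm1. Nfil3 was not read with clones as replicates. Dormant Gata3 differed by 0.90 ± 0.057. The activated Gata3 difference did not pass treat against a difference of 1, and neither it nor that of Nfatc1 passed with clones as replicates (adjusted p = 1 in each case).

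Of 12 measured genes otherwise associated with type 2 cells, 3 were called higher and none lower in activated CD8IL13+ than CD8IL13- clones, against 0.666% of all probe sets called higher and 1.75% in either direction. Ccr8, a chemokine receptor gene, was higher by 3.29 ± 0.089 (SE, limma adjusted p = 1.55e-25). Its means were 9.28 in sAg1 and 8.15 in sAg3, against 5.55 in 8uvmo-2 and 5.30 in 8uvmo-3, so sAg1 was the higher clone, unlike for Il5 and Il13. Dusp4, a phosphatase gene, was higher by 2.26 ± 0.096 (adjusted p = 5.48e-20), with 11.56 in sAg1 and 11.73 in sAg3 against 10.16 in 8uvmo-2 and 8.62 in 8uvmo-3. Penk, the proenkephalin gene, was higher by 3.15 ± 0.16 (adjusted p = 3.06e-18), but this rested on sAg1 (14.23): sAg3 (8.50 to 9.07) overlapped 8uvmo-2 (8.43 to 9.01), above 8uvmo-3 (mean 8.12). Activated CD8bm1 (mean 10.50) lay above sAg3 in Penk. With clones as replicates none of the 3 passed (adjusted p = 0.441 for Ccr8 and 1 for Penk and Dusp4). In dormant clones 3 were called higher, against 1.02% of all probe sets, Ccr8 by 3.15, Dusp4 by 3.06 and Hpgds, the gene of a prostaglandin D synthase, by 2.78. The Dusp4 difference there rested on sAg3 (10.75), with sAg1 at 6.67 against 5.72 in 8uvmo-2 and 5.56 in 8uvmo-3. Dormant CD8bm1 (7.25) lay above dormant sAg1 in Dusp4. The dormant Ccr8 and Dusp4 calls were lost with clones as replicates (adjusted p = 0.769 and 0.881). In dormant clones 2 were called lower, where 3.35% of all probe sets were called in either direction. These were Gpr15, a homing receptor gene, with a difference of -3.27, and Ptgdr2, the gene of a prostaglandin D2 receptor, with -1.09. The clones were uneven in dormant Gpr15, with 5.67 in sAg1 and 7.95 in sAg3 against 11.24 in 8uvmo-2 and 8.91 in 8uvmo-3. Dormant CD8bm1 was low in both genes (5.63 in Gpr15 and 6.41 in Ptgdr2). Hpgds, Gpr15 and Ptgdr2 were not read with clones as replicates. The CD8IL13- clones were uneven in dormant Hpgds: the 8uvmo-2 mean (8.65) lay nearer to that of sAg3 (9.44) than to that of 8uvmo-3 (5.70). The highest dormant Hpgds mean was that of sAg1 (10.47). Of 17 other T cell cytokine genes, Tnf alone was called by phenotype in activated clones, against 1.75% of all probe sets. The Tnf difference was -1.34. It rested on sAg3 (11.07), as sAg1 (13.28 to 13.34) lay within the range of 8uvmo-2 (13.23 to 13.54), and it was lost with clones as replicates (adjusted p = 1). In dormant clones the means of both sides lay apart most widely in Il10 and Lta, both higher in CD8IL13+. Dormant Il10 was 6.77 in sAg1 and 7.93 in sAg3, against 5.61 in 8uvmo-2 and 4.79 in 8uvmo-3. Dormant Lta was 9.60 and 8.98, against 8.16 and 8.21. CD8bm1 was high in both when dormant (8.46 in Il10 and 9.51 in Lta).

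Markers of other cells that make these cytokines were read beside the values. Of 12 measured mast cell and basophil markers, at most 2 lay above 7 on any array. The summed level of the 12 ran from 73.31 to 75.32 in activated sAg3 and from 67.64 to 69.37 in activated sAg1, against 71.12 to 71.93 in activated 8uvmo-2 and 70.54 to 71.43 in activated 8uvmo-3. It was 66.77 to 68.23 in activated CD8bm1. In the dormant state it was 69.97 to 70.70 in sAg3 and 65.74 to 66.54 in sAg1. Dormant 8uvmo-2 gave 69.70 to 74.97, 8uvmo-3 63.11 to 64.72 and CD8bm1 61.57 to 62.88. The sum was higher in sAg3 than in sAg1 in both states, as Il5 was, and also higher in 8uvmo-2 than in sAg1. Most of these gaps lay in 1 of the 12, Mcpt8, a basophil protease gene, and a sum without it was not read. On every dormant sAg1 array 1 of the 12 lay above 7, and it was not Mcpt8 (5.72 to 6.08 there). On dormant 8uvmo-2 arrays 2 of the 12 lay above 7, of which Mcpt8 (8.66 to 11.55) was only 1. In dormant sAg3 1 or 2 of the 12 lay above 7. Mcpt8 was at 12.10 in activated and 10.68 in dormant sAg3, and at 9.63 in activated 8uvmo-2 and 9.90 in activated 8uvmo-3. Activated sAg1 arrays had 6.36 to 6.91. Cd4, given above, was likewise highest in sAg3 in both states. Of 4 measured eosinophil markers at most 1 lay above 7 on any array, of 10 macrophage markers at most 3, and of 4 B cell markers none. The part of the cells behind Mcpt8 and Cd4 in the Il5 and Il13 differences was not tested.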

How the data were processed

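RNA of 5 CD8 T cell clones was measured on 38 Affymetrix arrays, from 100 ng of total RNA each per the labels. The deposited values are log2 probe set levels (from 1.81 to 14.76 over 35556 rows). Per the submitters' processing notes the tools were Partek and RMA; no version or setting was stated there. No test compared RMA levels between probe sets. Levels were read across probe sets in the guide for near background, among probe sets of the same mean level and in the summed marker levels. How far a level depends on the probes of its probe set was not tested. The low values of Il4 and Il9 therefore do not show that their RNA was absent. Of the rows, 23410 carry a gene name in the platform annotation and were tested. Gene names and gene order came from the GRCm38.p6 gene table, which 21698 probe sets matched by gene number. Arrays have no read depth, so their number limits the precision.

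All arrays were fitted with limma 3.58.1 in R 4.3.3, with 1 mean for each of the 10 groups, a shared spread and variances moderated with a mean trend, two-sided. Errors of means are standard deviations and errors of differences are standard errors. A list gene with several probe sets was represented by the one with the highest mean. The genes most alike a member were the 5 with the highest Pearson r over the 10 group means, among single-gene probe sets whose means span at least 2 and reach at least 8. In a list, up to 4 called genes per direction were named. The fits were tested on simulated data. The labels do not say what the replicate numbers mean. Of 18 pairs of arrays with the same clone and number, 7 correlated above 0.1 in their deviations from the group means (range -0.236 to 0.268), among them all 4 pairs of 8uvmo-2 (0.113 to 0.237).

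The members, lists, tests and alternatives were chosen with earlier results of these data known. The alternative without 2 arrays of dormant 8uvmo-2 was chosen after seeing the data.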

Additional observations from a re-analysis of the deposited data

Results flagged for a closer look

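In activation, 2 results differed between the phenotypes by a test of the difference itself, with arrays and not clones as replicates. The activation effect of Il5 was 1.76 larger in the CD8IL13+ clones than in the CD8IL13- clones (limma adjusted p = 7.42e-08), with effects of 2.97 in sAg1 and 2.31 in sAg3 against 0.86 in 8uvmo-2 and 0.88 in 8uvmo-3. The activation effect of Il13 was 1.84 larger (adjusted p = 2.22e-08), with 3.27 in sAg1 and 2.49 in sAg3 against 1.59 in 8uvmo-2 and 0.48 in 8uvmo-3. Each of the 4 genes was also read in each group of 4 arrays for a single outlying array, by its gap to the nearest value over the range. None of these 32 sets held one. Such a check cannot flag a split of 2 arrays against 2, as for Il5 and Il13 in activated sAg1. Dormant sAg1 and dormant sAg3, with 3 arrays each, were not tested in this way.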

How the results depend on the processing

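The phenotype differences of Il5 and Il13 in activated clones, the differences between sAg1 and sAg3 and the activation of both genes in these clones kept their direction and their call under every alternative that gave them a value, except that clones as replicates ended the phenotype calls (Il5 4.91 and Il13 3.98 against CD8IL13- clones, Il5 5.14 and Il13 4.55 against CD8bm1). In the dormant state the same alternative ended the calls of Il13 (2.14 against CD8IL13- clones, 2.07 against CD8bm1) and of Il5 against CD8bm1 (3.38). Without a minimum on the difference, activation was also called for Il5 in 8uvmo-2 (0.86), 8uvmo-3 (0.88) and CD8bm1 (0.88) and for Il13 in 8uvmo-3 (0.48). Under treat, Il13 in 8uvmo-2 (1.59) and the difference in Il5 activation between phenotypes (1.76, adjusted p = 0.0998) were not called. Centring turned Il13 activation in CD8bm1 to -0.01, and quantile normalization turned it to -0.11 and that in 8uvmo-3 to -0.03. Array weights ended the call of dormant Il13 against CD8bm1 (2.02) and gave one for the difference in Il13 activation between sAg1 and sAg3 (1.00). Same-numbered arrays deviated together in 8uvmo-2 (all 4 pairs above 0.1) but not in every pair of any other clone. A fit with the replicate block ended the call of dormant Il13 by phenotype (2.09), and leaving out dormant 8uvmo-2 replicates 1 and 3 did so too (2.12).

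With single arrays left out, the dormant phenotype difference ran from 3.11 to 3.19 in Il5 and from 2.08 to 2.18 in Il13, dormant Il13 against CD8bm1 from 2.02 to 2.13, and the Il13 activation in sAg1 minus that in sAg3 from 0.52 to 1.12. Several near-0 differences of Il4 and Il9 changed sign. Il9 between dormant sAg1 and sAg3 was 0.01 after centring and 0.02 after quantile normalization, which gave 0.01 between the activated ones. The ranges that follow are with single arrays left out. By phenotype, CD8IL13+ against CD8IL13-, Il4 ranged from -0.04 to 0.01 in activated clones and Il9 from -0.06 to 0.01 in dormant clones. Dormant Il4 by phenotype kept its sign, from 0.10 to 0.20 (limma adjusted p from 0.00894 to 0.277). Against CD8bm1, Il4 ranged from -0.06 to 0.05 in activated clones and Il9 from -0.01 to 0.06 in dormant clones. Between sAg1 and sAg3, Il4 ranged from -8.33e-04 to 0.08 (activated) and from -0.12 to 0.01 (dormant). Il9 ranged there from -0.10 to 0.03 (dormant) and from -0.10 to 0.04 (activation effect). Il4 and Il9 have no value where a group mean of at least 7 was required. The number of called probe sets over all comparisons, 410 to 2783, was 3074 to 19321 without a minimum, 97 to 1188 under treat, and 2 to 56 with clones as replicates. In sAg3 activation it was 1179, against 624 after quantile normalization and 611 with the filter. With all rows of the file it was 4379 in sAg1 activation (2538 named), 1874 in sAg3 activation, 2894 between dormant sAg1 and sAg3 (1767 named) and 2280 in the difference of their activation (1216 named). The cause of these changes was not tested beyond what each alternative leaves out or adds.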
